A study of Rattus norvegicus with 16 samples.

Results

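The calpain protease genes and their inhibitor calpastatin were examined in rat hippocampus. The members are Capn1, Capn2, Capn3, Capn5, Capn6, Capn7, Capn8, Capn10, Capn12 and Cast, and they were chosen as every probe whose gene name on the array equals one of these symbols. This gave 14 probes of 10 genes, out of 30367 probes and 26583 gene names on the array. Of the 14 probes, 13 were bright enough to be tested.

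Each of the 16 arrays is the whole hippocampus of 1 male Sprague-Dawley rat, dissected at 24 h. Naive rats (3 arrays) had no injury and no treatment, and Sham rats (2 arrays) were anesthetized and prepared for injury without receiving it. TBI rats (3 arrays) received a severe fluid percussion injury, a pressure pulse onto the brain surface. The remaining rats received the same injury and a compound: PMI-006 by gavage in TBI+PMI (3 arrays), JM6, a prodrug inhibitor of kynurenine monooxygenase, by gavage in TBI+JM6 (3 arrays), and estradiol, labeled E33, by injection in TBI+E33 (2 arrays). No drug was given to an uninjured rat, and no vehicle is named for the TBI rats. The methods state 3 rats in every group, and 2 Sham and 2 TBI+E33 arrays were analyzed here.

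Calpains are cysteine proteases that are switched on by calcium and cut their substrates at a limited number of places. Capn1 and Capn2 encode the large subunits of the 2 classical enzymes, mu-calpain and m-calpain, which share the small subunit Capns1, and Cast encodes their endogenous inhibitor. In injured brain, calcium entry activates calpains, which then cleave cytoskeletal proteins such as spectrin, neurofilaments and collapsin response mediator proteins. This activation is an event of the protein, and an array reads only the mRNA.

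The probes that carry the results are shown first, because each value below is the light bound to 1 of these sequences. They are written 5′ to 3′ as the files give them, with positions in rn4 as the scanner files give them. Capn2 and Cast each had a leading probe (the brightest) and another probe 3283 and 6130 bases away, and the pair of probes did not always move alike. The second Capn2 probe (chr13:98476853-98476912, minus strand) and the second Cast probe (chr2:1501216-1501275, minus strand) had no stop codon when read from their first base. The same held for the Capn12 probe and the second Capn5 probe, whose values were called in comparisons among Naive, Sham and TBI rats. It also held for the leading Cast and Capn5 probes, the second Capn8 probe and the Capn1 and Capn6 probes, so it does not set the Cast probes apart. The reading frame of the transcripts was not known.
Capn2, second probe: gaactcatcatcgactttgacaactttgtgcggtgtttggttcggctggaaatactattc
Cast, second probe: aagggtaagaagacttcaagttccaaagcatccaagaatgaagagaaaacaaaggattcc
Capn12: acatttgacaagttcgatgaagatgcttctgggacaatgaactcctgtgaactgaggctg
Capn5, second probe: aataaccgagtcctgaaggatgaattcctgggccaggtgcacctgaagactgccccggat
Of the leading Capn2 and Cast probes the first 30 bases are given, and of the Capn1 and Capn6 probes the last 30, in which capitals mark AATAAA, the signal that precedes the poly(A) tail.
Capn2, leading probe: agtccttgaccatatttggccttagacatt
Cast, leading probe: ggctttccaaaagtgatggtgaccaaaaca
Capn1: cagtgggaaAATAAAatgaaaggccagaca
Capn6: cttacaaacagaatcacAATAAAgttcata
The leading Capn3 probe spans 829 bases of rn4 for its 60 bases, so it is split in the genome, and the Capn10 probe has no position in the files.

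Levels are given as log2 of the intensity over the 75th percentile of the array's detected probes, so that 0 is that percentile and 1 unit is a doubling. Probes of different genes bind with different strength and are not compared. Values of Capn1, Capn6, Capn7, Capn10 and of both probes of Capn2 and of Cast were well above background on 16 of 16 arrays. On their leading probes Capn5 was above background on 11 arrays, Capn12 on 10, Capn3 on 5 and Capn8 on 3, and the second probes of Capn5 and Capn8 were on 9 and 3, of which TBI+PMI 1 was not among the arrays of the leading Capn8 probe. The Naive, Sham and TBI arrays were scanned in 1 session and the drug-treated arrays in another, and 16274 to 18239 probes were above background in the former against 20256 to 24979 in the latter. Drug and session cannot be told apart in any comparison of drug-treated with TBI rats. The label of the tissue was checked against 8 hippocampal genes, each above background on some arrays, although Prox1, a dentate granule cell gene, was above it on no Sham and no TBI array. Choroid plexus genes (6 listed) varied most between dissections, with a summed level of 80.4 in Naive 2, 127 in Sham 1 and 166 in TBI+PMI 1 against 1.02 to 9.43 in the others.

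**Figure D1:**
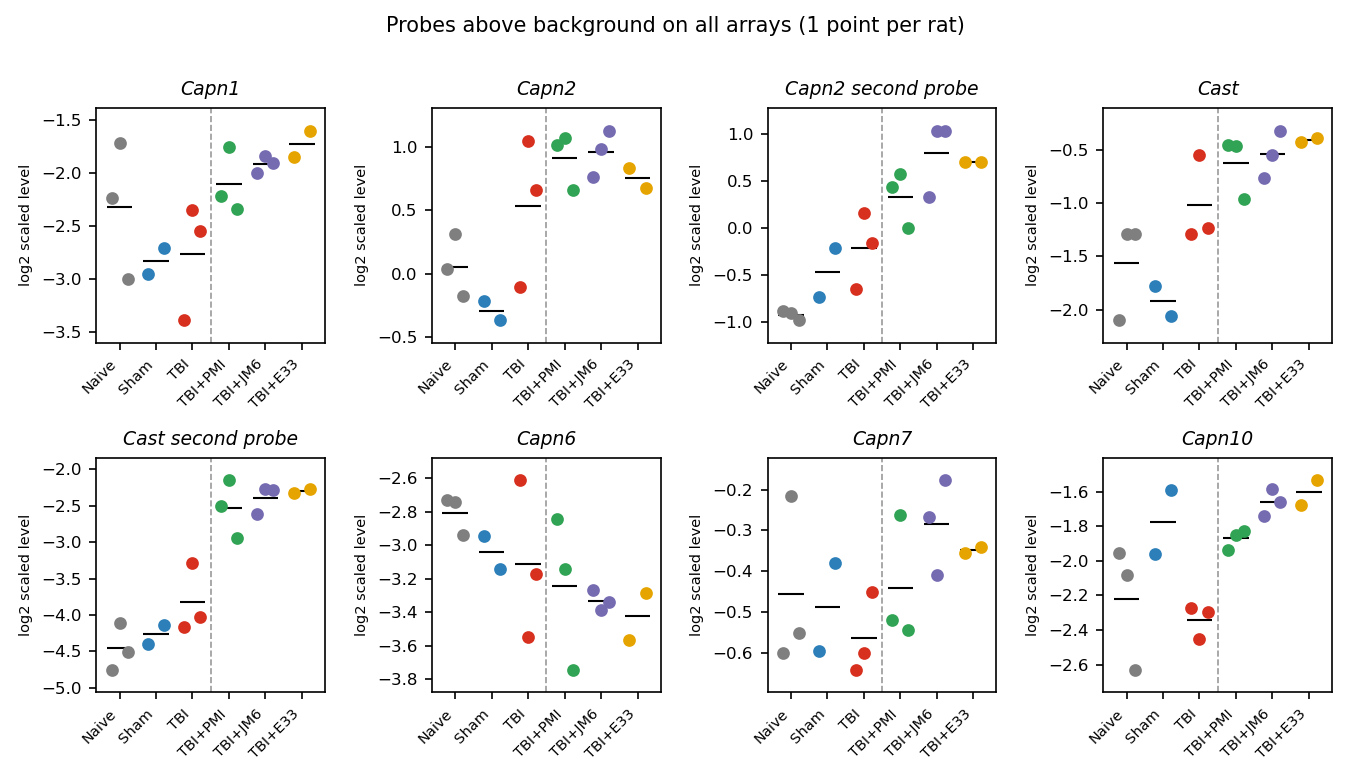
Levels of the 8 probes that were above background on all 16 arrays, as log2 of the scaled intensity, by group on the x axis, with 1 point per rat and a line at each group mean. The dashed line separates the 2 scanning sessions. On the leading Capn2 probe TBI 1 (-0.11) lies with the Naive and Sham rats, while TBI 2 and 3 (1.05 and 0.66) lie above all of these.

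Capn2 encodes the large subunit of m-calpain. The scaled level of its leading probe was higher in each TBI rat than in either Sham rat, but the difference did not pass the test across all probes. The intensity of that probe was 1393 and 1114 in the Sham rats, 1318, 2711 and 2571 in the TBI rats, and 1548, 1624 and 1245 in the Naive rats. In intensity TBI 1 was therefore below Sham 1. On the scaled log2 scale the Sham rats were at -0.22 and -0.37 and the TBI rats at -0.11, 1.05 and 0.66. TBI 2 and TBI 3 stood clear of every control rat, and TBI 1 fell among the Naive rats, which were at 0.04, 0.31 and -0.18. The difference of TBI from Sham was 0.83 ± 0.29 (SE) on the log2 scale, with a limma adjusted p of 0.0863 and a 95% interval of 0.21 to 1.45. Against Naive rats it was 0.48 ± 0.26 (adjusted p = 0.313 by limma).

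The second Capn2 probe gave 911, 1459 and 1458 in the TBI rats, 976 and 1242 in the Sham rats, and 817, 702 and 716 in the Naive rats. Here the Naive rats were the lowest and each TBI and Sham rat was above all of them, while the TBI and Sham rats overlapped, with both Sham rats above TBI 1 in intensity. The log2 difference from Naive was 0.71 ± 0.25 (limma adjusted p = 0.129) and that from Sham was 0.26 ± 0.28 (limma adjusted p = 0.601). The 2 probes therefore placed the Sham rats on opposite sides of the Naive rats, with neither difference passing the test (-0.35 and 0.45, limma adjusted p = 0.528 and 0.387).

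Cast, the inhibitor, followed Capn2. Its leading probe had intensities of 471 and 345 in the Sham rats and 581, 895 and 690 in the TBI rats, which did not overlap, while the Naive rats were at 353, 536 and 575. The scaled levels were -1.78 and -2.06 in Sham, -1.29, -0.55 and -1.23 in TBI and -2.10, -1.29 and -1.29 in Naive rats. TBI 2 was the highest of these 8 rats for Cast, as it was for Capn2. TBI exceeded Sham by 0.89 ± 0.29 log2 units (limma adjusted p = 0.0738) and Naive by 0.54 ± 0.26 (limma adjusted p = 0.27). The second Cast probe differed by 0.44 ± 0.29 from Sham and by 0.63 ± 0.26 from Naive (limma adjusted p = 0.372 and 0.194), and its TBI intensities of 79.0, 134 and 99.2 overlapped the Sham values of 77.0 and 81.4.

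The call for Capn2 and Cast in TBI versus Sham depended on TBI 1 and on the scaling. With TBI 1 left out, the leading Capn2 probe exceeded Sham by 1.15 (limma adjusted p = 0.00575) and Cast by 1.03 (limma adjusted p = 0.0445), and both passed. Both also passed when the percentile was taken over all probes (adjusted p = 0.0393 and 0.0234) or when a trend on probe GC content was removed (adjusted p = 0.0482 and 0.0283). No slide held both TBI and Sham arrays. On the slide that held the TBI rats and Naive 3, the TBI mean was higher by 0.71 for the leading Capn2 probe and by 0.27 for the leading Cast probe. With the slide as a fixed block the differences from Sham were 1.18 and 0.50 (adjusted p = 0.806 and 0.883).

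TBI 1 differed from the other TBI rats in cell markers as well. Its summed level of 8 hippocampal genes was 9.55 against 5.07 and 5.92 in TBI 2 and 3, 5.46 to 6.68 in Naive and 10.6 and 11.7 in Sham rats. That of 7 oligodendrocyte genes was 113 against 76.2 and 55.3. The summed level of 7 microglia and macrophage genes, all above background in every group, was 10.2 in TBI 1 and 13.6 and 13.4 in TBI 2 and 3, against 7.13 to 8.21 in Naive and 8.40 and 13.0 in Sham rats. The summed level of 6 leukocyte genes was 7.08 in TBI 2, the rat with the highest Capn2 and Cast of the session, against 1.52 and 1.32 in TBI 1 and 3 and 0.593 to 1.52 in the uninjured rats. Without TBI 2 the leading Capn2 probe differed from Sham by 0.57 and Cast by 0.66 (limma adjusted p = 0.258 and 0.228). The part of cell composition in the Capn2 and Cast values was not tested, and in whole tissue a change in the number of cells and a change in the mRNA per cell cannot be told apart.

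**Figure D2:**
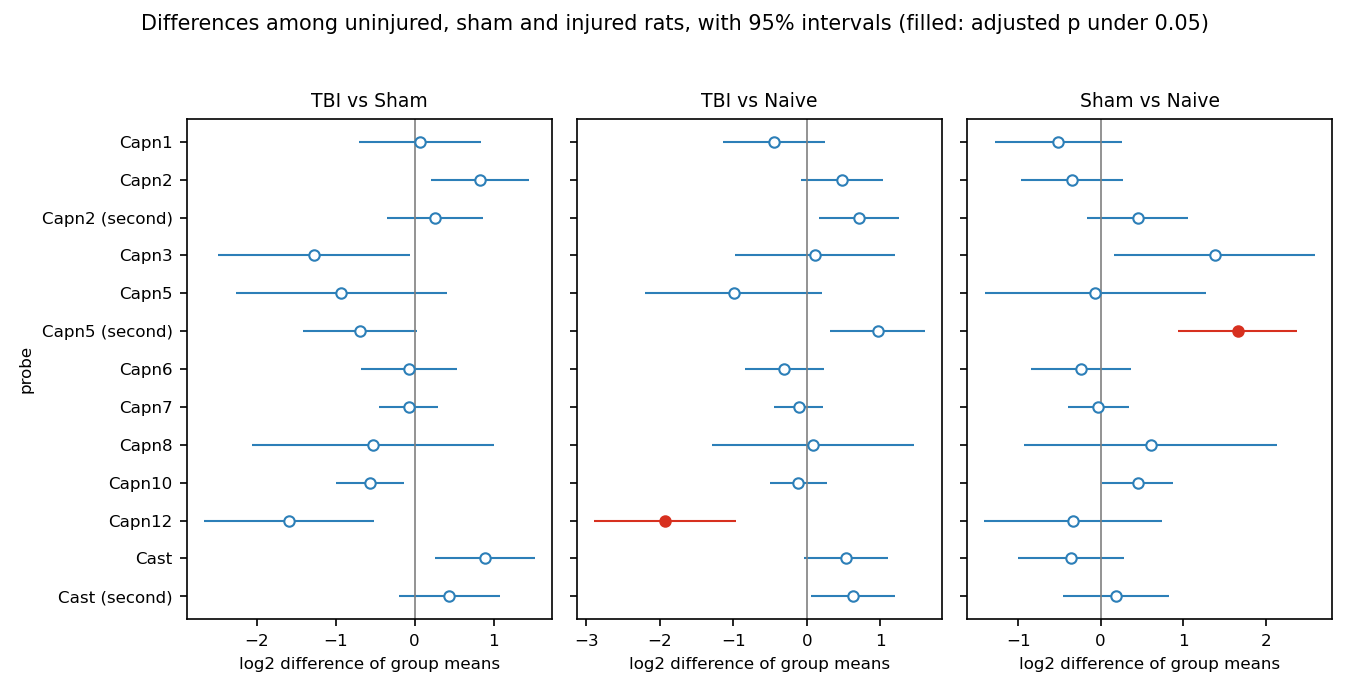
Log2 difference of group means for the 13 tested probes in TBI vs Sham, TBI vs Naive and Sham vs Naive, with 95% intervals from limma, and filled red points where the adjusted p is under 0.05. In TBI vs Sham no point is filled, in TBI vs Naive only Capn12 is, and in Sham vs Naive only the second Capn5 probe is.

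Across the family, none of the 10 genes passed limma's test in TBI versus Sham at an adjusted p under 0.05, where 9.38% of all 22780 tested probes did. At an unadjusted p under 0.05, 5 genes passed, which were Capn2 and Cast with higher and Capn3, Capn10 and Capn12 with lower values in TBI rats, where 26% of all tested probes passed. The methods' t-test passed 1 gene, Capn10, before adjustment and 0 after it, where it passed 13.5% and 0.00439% of all probes. Of the 13 tested probes, 2 had a higher scaled level in every TBI than in every Sham rat and 3 a lower one, where 17.6% and 24.3% of all probes did. The median difference of the 13 probes was -0.08, and that of all tested probes was -0.03.

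Capn12, a little-studied calpain, was the gene that fell against Naive rats. Its intensity was 43.1, 19.1 and 32.0 in Naive rats, of which 2 were above background, 37.2 and 17.5 in Sham rats, of which 1 was, and 13.4, 4.69 and 8.20 in TBI rats, of which 0 were. The TBI rats were therefore below each of the 5 control rats. Since the TBI values were not well above background, the fold change is a bound on the ratio of group means. For it, values of the dim group below the lowest detected level of their array were raised to that level. Such a bound, here and below, leaves out the spread between rats and other processing, and the p beside it tests the values before raising. By it Capn12 was at least 1.32-fold lower in TBI than in Naive rats (limma adjusted p = 0.0297) and at least 1.05-fold lower than in Sham rats (limma adjusted p = 0.0627). It was the 1 gene of 10 called in TBI versus Naive, where 4.72% of all tested probes were. Of the 13 probes, 2 were higher in every TBI than in every Naive rat and 1, Capn12, was lower, where 12.7% and 10.6% of all probes were. The call was lost when Naive 1, Naive 3, TBI 2 or TBI 3 was left out (limma adjusted p = 0.0718 to 0.116), and with a normexp background correction the difference turned to 0.19.

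Capn10, an atypical calpain without the calcium-binding region of the classical ones, was lower in each TBI rat than in either Sham rat. Its scaled log2 levels were -1.96 and -1.59 in Sham, -2.27, -2.45 and -2.29 in TBI, and -1.96, -2.08 and -2.63 in Naive rats. The difference from Sham was -0.56 ± 0.20 (limma adjusted p = 0.0941) and that from Naive was -0.12 ± 0.18 (limma adjusted p = 0.782). With the slide as a fixed block the difference from Sham was 0.05.

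Capn3, the muscle calpain, was above background on 1 of the 8 arrays of this session, Sham 1, with an intensity of 35.1. The others ranged from 5.22 to 12.3. Sham 1 was also the array with the highest choroid plexus level of the session. Naive 2, with the next highest, had a Capn3 intensity of 10.2, and Naive 1 and 3 had 5.77 and 6.06. The part of choroid plexus tissue in the Capn3 signal was not tested. Its 2 comparisons with an unadjusted p under 0.05, TBI versus Sham and Sham versus Naive, did not pass after adjustment (limma adjusted p = 0.173 and 0.161).

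Capn1, the large subunit of mu-calpain, had intensities of 322, 400 and 176 in Naive, 210 and 220 in Sham and 136, 257 and 278 in TBI rats, and the groups overlapped. Capn7, which has microtubule-interacting and transport domains, stayed between 863 and 1187 in all 8 rats. Capn6, which lacks the catalytic cysteine and binds microtubules, lay between 112 and 232. The 95% intervals of the difference of TBI from Sham were -0.70 to 0.84 for Capn1, -0.45 to 0.29 for Capn7 and -0.67 to 0.54 for Capn6, so the spread between rats leaves room for changes of these sizes. Capn8, a calpain of the stomach, was above background on 0 of the 8 arrays with either of its probes.

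In Sham versus Naive rats 0 of the 10 genes were called on their leading probes, where 8.07% of all tested probes were, and 2 (Capn3 and Capn10) had an unadjusted p under 0.05, where 22.8% of all probes did. The methods' t-test passed 0 genes, before and after adjustment, where it passed 16% and 0% of all probes. The second probe of Capn5, a calpain with a C2 domain in place of the calcium-binding region, was called. It read 21.0 and 31.1 in Sham rats, of which 1 was above background, and 8.14, 9.81 and 5.17 in Naive rats, of which 0 were. This made it at least 1.11-fold higher in Sham than in Naive rats (limma adjusted p = 0.012), a call lost without Sham 2 (limma adjusted p = 0.124). The leading Capn5 probe, 1033 bases away, read 26.2 and 39.8 in Sham against 20.4, 81.5 and 18.2 in Naive rats, with overlapping groups.

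**Figure D3:**
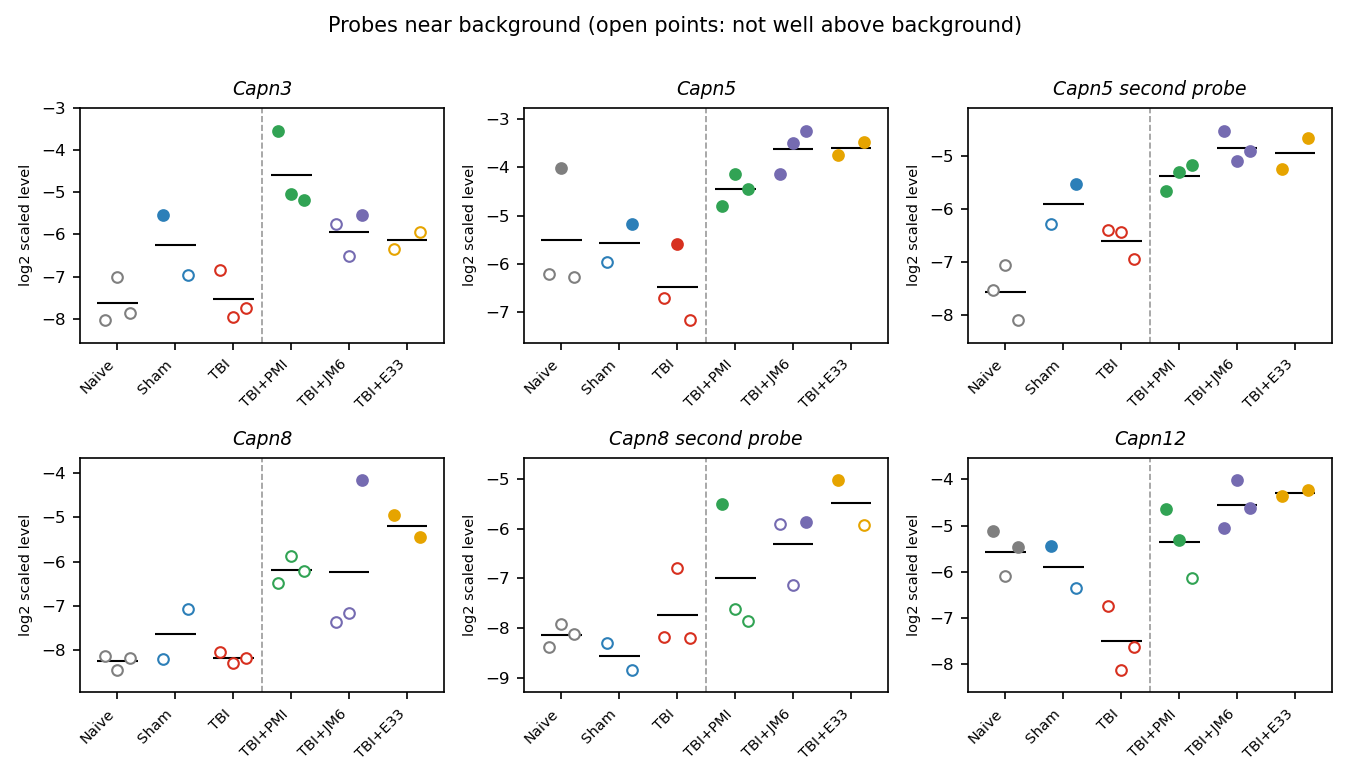
Levels of the 6 probes near background, as log2 of the scaled intensity, by group, with 1 point per rat, filled where the probe was well above background and open where it was not, and a line at each group mean. Capn12 is open in 3 of 3 TBI rats, and Capn3 is filled in 3 of 3 TBI+PMI rats.

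The drug-treated rats shared a session, so differences among them are free of the split between sessions. No slide held both TBI+PMI and TBI+E33 arrays, so drug and slide cannot be told apart in that comparison. No calpain gene was called in TBI+PMI versus TBI+JM6, where 0.0132% of all tested probes were, none in TBI+E33 versus TBI+JM6 (0.0176%) and none in TBI+E33 versus TBI+PMI (0.11%). At an unadjusted p under 0.05 limma passed 1, 0 and 1 genes, Capn3 in both cases, where 8.87%, 2.81% and 15% of all probes passed. The methods' t-test passed 0, 0 and 3 before adjustment (Capn5, Capn8 and Capn10) and 0 in each after it, where 6.83%, 2.71% and 15% of all probes passed before it.

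Capn2 on its leading probe had intensities of 3432, 3497 and 3261 in TBI+PMI, 2835, 3685 and 3019 in TBI+JM6 and 2820 and 1991 in TBI+E33 rats. Scaled levels were 1.02, 1.07 and 0.66, then 0.77, 0.98 and 1.13, then 0.84 and 0.67, so that all 8 lay between 0.66 and 1.13. The 95% interval of the difference was -0.60 to 0.51 for TBI+PMI versus TBI+JM6 and -0.82 to 0.41 for TBI+E33 versus TBI+JM6. For Cast the scaled levels were -0.46, -0.46 and -0.97 in TBI+PMI, -0.77, -0.55 and -0.32 in TBI+JM6 and -0.43 and -0.39 in TBI+E33 rats, with intervals of -0.65 to 0.49 and -0.50 to 0.77 for the same comparisons. The second Capn2 probe was spread more widely, from -0.00048 in TBI+PMI 3 to 1.04 in TBI+JM6 2. On it TBI+PMI differed from TBI+JM6 by -0.47 (limma adjusted p = 0.641). TBI+E33 exceeded TBI+PMI by 0.37 without overlap (limma adjusted p = 0.588), where the leading Capn2 probe differed by -0.16.

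Capn3 was the member that separated the drugs most. A probe was tested if all arrays of some group were above background, and Capn3 met this only in TBI+PMI. Its height in that group is therefore not independent of the filter. Its intensity was 147, 51.0 and 56.8 in TBI+PMI rats, all above background, 31.2, 20.4 and 29.5 in TBI+JM6 rats, of which 1 was, and 19.4 and 20.4 in TBI+E33 rats, of which 0 were. Every TBI+PMI rat was above every other drug-treated rat. By the bound on group means Capn3 was at least 2.47-fold lower in TBI+E33 than in TBI+PMI rats (limma adjusted p = 0.22). TBI+PMI exceeded TBI+JM6 by 1.35 ± 0.50 log2 units (limma adjusted p = 0.471), so neither difference passed. TBI+PMI 1, the rat with the highest Capn3, had the highest choroid plexus level of all arrays (166), and TBI+PMI 2 and 3 had levels of 9.43 and 1.97. The part of choroid plexus tissue in these Capn3 values was not tested. With TBI+PMI 1 left out the limma adjusted p was 0.469 against TBI+E33 and 0.807 against TBI+JM6. With array weights both passed (limma adjusted p = 0.0486 and 0.0358). With normexp TBI+E33 differed from TBI+PMI by only -0.33 log2 units, and the difference of TBI+PMI from TBI+JM6 turned to -0.52.

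The other dim calpains were ordered differently. Capn12 read 67.8, 41.7 and 29.4 in TBI+PMI, 50.2, 115 and 56.4 in TBI+JM6 and 76.9 and 66.3 in TBI+E33 rats. TBI+E33 exceeded TBI+PMI by 1.07 ± 0.50 log2 units, with no overlap of the scaled levels, although the intensities overlapped (limma adjusted p = 0.339). The leading Capn8 probe was above background in both TBI+E33 rats (51.4 and 28.8), in 1 of 3 TBI+JM6 rats (76.6) and in 0 of 3 TBI+PMI rats (18.9, 28.5 and 27.6), while the second Capn8 probe was above it in 1 rat of each group, TBI+PMI 1 (37.4), TBI+JM6 3 (23.5) and TBI+E33 1 (48.3). In TBI+E33 versus TBI+PMI 6 of 13 probes were higher without overlap of the scaled levels, where 39.4% of all probes were. The 1 that was lower, where 1.66% were, was Capn3, which was tested only through TBI+PMI. The median of all probes was 0.26 higher in TBI+E33 than in TBI+PMI rats, and 0.03 higher with the slide as a fixed block.

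The ratio of Capn2 to Cast within an array does not depend on how an array is scaled as a whole. The log2 ratio of the leading probes was 1.62 ± 0.51 in Naive (SD, n = 3), 1.63 ± 0.09 in Sham (SD, n = 2), 1.56 ± 0.36 in TBI (SD, n = 3), 1.54 ± 0.08 in TBI+PMI (SD, n = 3), 1.50 ± 0.05 in TBI+JM6 (SD, n = 3) and 1.16 ± 0.14 in TBI+E33 rats (SD, n = 2). On these probes the means of 5 groups lay between 1.50 and 1.63, although single Naive rats ranged from 1.12 to 2.13 and single TBI rats from 1.18 to 1.90. Only changes of this ratio between groups can be read, not its size. Both TBI+E33 rats (1.27 and 1.06) were below all TBI+PMI rats (1.47, 1.53 and 1.63) and all TBI+JM6 rats (1.53, 1.53 and 1.45). The differences from these groups were -0.38 and -0.34, with an exact two-sided permutation p of 0.1 for each, which is the smallest that 2 against 3 arrays allow, and an adjusted p of 0.45 over the 9 comparisons. With the mean of both probes of each gene in place of the leading ones, the same differences were -0.12 and -0.26 (exact permutation p = 0.3 and 0.2), while TBI+PMI and TBI+JM6 differed from TBI rats by -0.38 and -0.24 (exact permutation p = 0.1 and 0.3) against -0.015 and -0.055 on the leading probes. With 3 against 3 arrays the smallest p possible is also 0.1. No comparison of the ratio could therefore pass at 0.05 in either form, and nothing is concluded from none passing. The form changed the size of these differences.

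**Figure D4:**
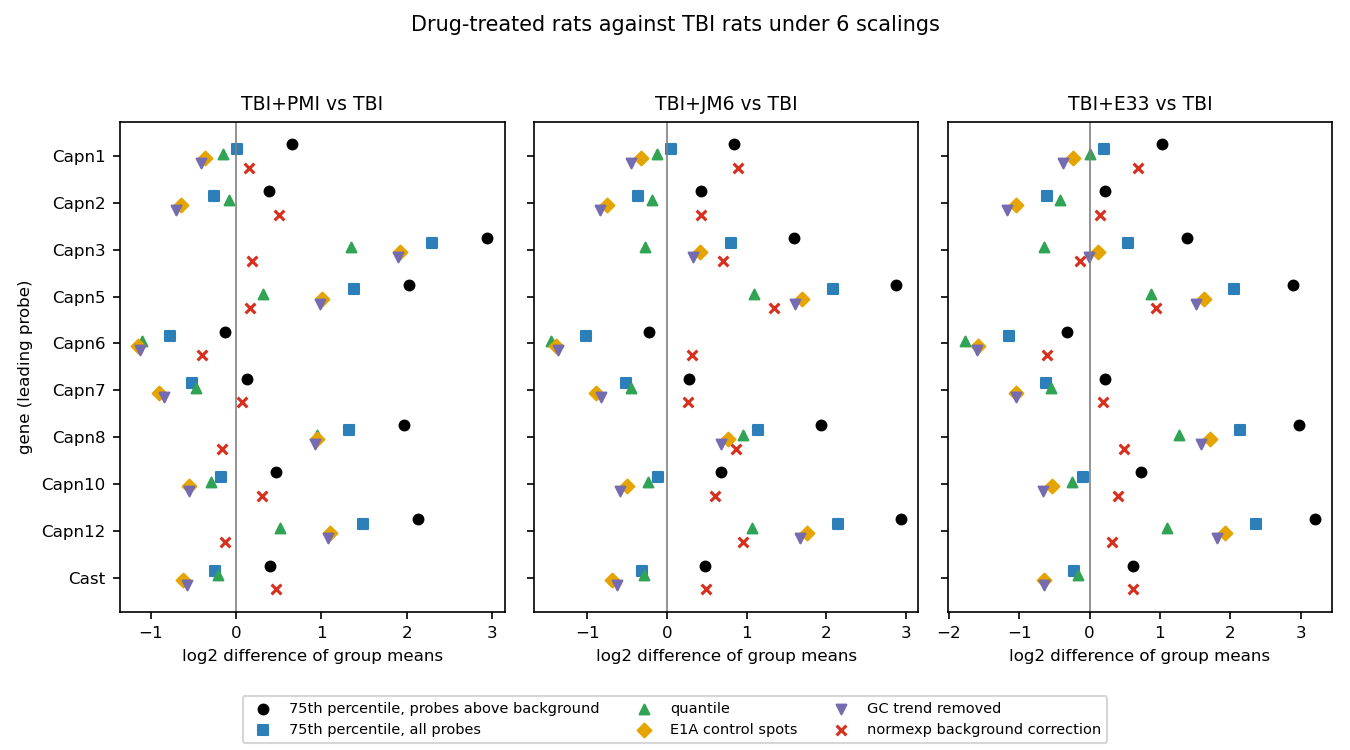
Log2 difference of TBI+PMI, TBI+JM6 and TBI+E33 from TBI rats for the leading probe of each of the 10 genes, under the percentile scaling used here (black circles) and under 5 other ways of processing. Capn2, Cast, Capn7 and Capn10 lie right of 0 under the scaling used here and left of it when all probes set the percentile, under quantile normalization, under E1A scaling and after the GC trend was removed.

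Against TBI rats the drug-treated rats differed over most of the array. The median log2 difference of all tested probes was 0.79 for TBI+PMI, 0.996 for TBI+JM6 and 1.08 for TBI+E33, and 56.7%, 70.1% and 70.4% of all tested probes were called. Of the 10 calpain genes 5, 6 and 6 were called, all higher, which is close to those shares. That closeness rests on Capn3, Capn5, Capn8 and Capn12, which entered the test only through drug-treated groups. Among probes above background on every array 1, 2 and 2 of 6 genes were called with PMI, JM6 and E33. There 50.4%, 65.8% and 65.1% of all probes were. Capn3, Capn5, Capn8, Capn10 and Capn12 were called with each drug, and Capn1 with JM6 and E33. These comparisons share the TBI arrays and a session, and the values below are a description of how the members stood relative to the shift of the whole array.

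Of the probes above background on all arrays, the second Cast probe rose most. It read 79.0, 134 and 99.2 in TBI rats and 298, 376 and 268 in TBI+PMI, 273, 386 and 283 in TBI+JM6 and 314 and 259 in TBI+E33 rats. All 8 drug-treated rats were above all TBI rats. The log2 differences were 1.29 ± 0.26, 1.44 ± 0.26 and 1.53 ± 0.29 (limma adjusted p = 0.00137, 0.000458 and 0.000708), which is 0.50, 0.44 and 0.45 above the median of all probes. They stayed above 0 in each alternative run, with the smallest at 0.26, 0.24 and 0.19 once the GC trend was removed. None passed there, under quantile normalization, in the authors' value table or with E1A scaling (limma adjusted p = 0.202 to 0.598). The leading Cast probe showed a smaller difference of 0.40, 0.48 and 0.62 (limma adjusted p = 0.208, 0.117 and 0.0763), which is -0.39, -0.52 and -0.46 after subtracting the median difference of all probes. The 2 Cast probes therefore stood on opposite sides of the shift of the array with each drug.

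Capn2 on its leading probe differed from TBI by 0.38 with PMI, 0.42 with JM6 and 0.22 with E33, and none passed (limma adjusted p = 0.212, 0.15 and 0.488). Its second probe was called with JM6 (1.02 ± 0.25, limma adjusted p = 0.00351) and with E33 (0.92 ± 0.28, limma adjusted p = 0.0119). With PMI the second probe differed by 0.55 ± 0.25 (limma adjusted p = 0.0789). The direction of the leading probe turned with the scaling, to -0.08, -0.18 and -0.41 under quantile normalization for PMI, JM6 and E33.

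Capn6 and Capn7 stood lowest against the shift. Capn6 read 232, 112 and 180 in TBI, 237, 189 and 154 in TBI+PMI, 173, 179 and 136 in TBI+JM6 and 133 and 128 in TBI+E33 rats, with overlapping groups. Its differences were -0.13, -0.22 and -0.31 (limma adjusted p = 0.659, 0.433 and 0.315), or -0.92, -1.22 and -1.39 after subtracting the median difference of all probes, and it was called lower with each drug under quantile normalization (-1.10, -1.45 and -1.77). Capn7 differed by 0.12, 0.28 and 0.22 (limma adjusted p = 0.499, 0.115 and 0.26), or -0.67, -0.72 and -0.86 relative to that median, and turned to -0.47, -0.45 and -0.54 under quantile normalization, where it was called lower.

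Capn1 read 367, 494 and 408 in TBI+PMI, 417, 521 and 369 in TBI+JM6 and 439 and 412 in TBI+E33 rats, all above the 136, 257 and 278 of TBI rats. Its difference was 0.66 ± 0.32, 0.84 ± 0.32 and 1.04 ± 0.36 (limma adjusted p = 0.0932, 0.0312 and 0.0205), close to the shift of all probes. Capn10 rose by 0.47, 0.68 and 0.73 (limma adjusted p = 0.0393, 0.00492 and 0.00601), which is -0.32, -0.32 and -0.34 after subtracting the median difference of all probes. With the GC trend removed it was at -0.55, -0.59 and -0.66 and was called lower with each drug.

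Of the dim members a bound on the rise can be given where TBI rats were not above background. Capn12 was at least 1.52-fold higher than in TBI rats with PMI (2 of 3 arrays above background), at least 2.65-fold with JM6 (3 of 3) and at least 3.18-fold with E33 (2 of 2), with limma adjusted p of 0.00161, 0.000122 and 0.000169. Capn3 was at least 2.61-fold higher with PMI (limma adjusted p = 0.000443), at least 1.02-fold higher with JM6, where 1 of 3 arrays was above background (limma adjusted p = 0.0135), and with E33 it was called (limma adjusted p = 0.0425) although no array of either group was above background. The leading Capn5 probe read 61.0, 95.2 and 94.4 in TBI+PMI, 94.8, 166 and 146 in TBI+JM6 and 119 and 113 in TBI+E33 rats, all above background, against 13.6, 27.1 and 11.3 in TBI rats, of which 1 was (limma adjusted p = 0.00781, 0.000658 and 0.00141 with PMI, JM6 and E33). Except for Capn12 with JM6 and E33 and Capn3 with PMI, the bounds given here are smaller than the shift of all probes. Capn8 was at least 1.72-fold higher with E33 (limma adjusted p = 0.00272), and its other calls rest on arrays near background. The tested probes of these 4 genes had all arrays of a group above background only among drug-treated groups. For Capn3 this was only TBI+PMI, and for Capn8 only TBI+E33. Their calls against TBI rats are therefore not independent of the filter that let them into the test. More probes of the whole array were above background in the drug-treated session, and the part of that in these 4 genes cannot be told apart from the drugs. Under a normexp background correction none of the 10 genes was called with any drug, where 6.24%, 21.5% and 14.1% of all tested probes were with PMI, JM6 and E33.

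Marker lists of several cell types differed between the same groups. The summed level of 6 astrocyte genes was 25.5 to 25.8 in TBI rats and 30.4 to 52.8 in the drug-treated rats, and that of 7 neuronal genes was 18.8 to 23.9 and 26.9 to 43.7, both without overlap. The summed level of 6 leukocyte genes was 1.32 to 7.08 in TBI rats, while the lowest and highest of the drug-treated rats were 6.58 and 14.0, with Mpo above background on no array. That of the 7 microglia and macrophage genes was 10.2 to 13.6 in TBI rats and 13.6 to 20.6 in the drug-treated rats. The summed level of 7 oligodendrocyte genes overlapped, at 55.3 to 113 in TBI rats and 94.6 to 141 in the drug-treated rats. The median of all tested probes also differed from TBI rats, by 0.79, 0.996 and 1.08 log2 units with PMI, JM6 and E33. The sums are not corrected for that shift, so a change in cell content cannot be told apart from it. The part of cell composition in the calpain values was not tested.

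Of the other calpain genes 6 were on the array and 3 were tested. Capns1, the small subunit that both classical calpains need, had intensities of 2820, 2354 and 2261 in Naive, 4579 and 4501 in Sham and 3322, 3088 and 3105 in TBI rats. The Sham rats were above the TBI rats, which were above the Naive rats. Sham exceeded Naive by 0.76 ± 0.17 (limma adjusted p = 0.0207), while TBI differed from Sham by -0.44 ± 0.17 (limma adjusted p = 0.13) and from Naive by 0.32 ± 0.16 (limma adjusted p = 0.261). The call in Sham versus Naive was lost without Naive 3 (limma adjusted p = 0.0697), Sham 1 (0.0684) or Sham 2 (0.14). In the drug-treated rats Capns1 read 6863 to 8545, and was higher than in TBI rats by 0.97 with PMI, 1.12 with JM6 and 1.24 with E33, near the shift of all probes, with each called. Capns2, a retrogene relative of the small subunit, was not called in any comparison. Solh, named Capn15 in other species, differed from TBI rats by 0.55 with JM6 (limma adjusted p = 0.0478) and by 0.55 with E33 (limma adjusted p = 0.0705). Capn9, Capn11 and Capn13 were too dim to test.

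Known substrates and partners of calpains were taken as a list of 35 names, of which 32 were on the array and tested. In TBI versus Sham 0 were called higher and 5 lower, where 2.91% and 6.46% of all tested probes were. Dpysl2, a collapsin response mediator protein of axon growth, fell by 1.43 ± 0.31 log2 units (limma adjusted p = 0.0185), and Gria1, an AMPA receptor subunit, fell by 1.09 ± 0.24 (limma adjusted p = 0.02). Cdk5r1, which encodes the p35 activator that calpain cuts to p25, fell by 1.45 ± 0.30 (limma adjusted p = 0.015, 2 of 3 TBI arrays above background), and its kinase Cdk5 by 0.71 ± 0.17 (limma adjusted p = 0.0225). Grin2b, an NMDA receptor subunit, was also called lower (limma adjusted p = 0.00819) and was above background on 0 of 3 TBI arrays. The median of the 32 genes was -0.35, and that of all tested probes was -0.03. Each of the 5 genes was also higher in both Sham rats than in all Naive rats, and for Dpysl2 and Cdk5 that difference was called (1.24 and 0.61, limma adjusted p = 0.0313 and 0.0404), while against Naive rats the TBI rats differed by -0.20 and -0.10 (limma adjusted p = 0.759 and 0.775). The summed level of 7 neuronal genes, all above background on every Sham and TBI array, was 27.6 and 33.2 in Sham, 18.8 to 23.9 in TBI and 17.2 to 23.8 in Naive rats, and 2 of them were called lower in TBI than in Sham rats. The part of neuronal content in these values was not tested.

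In TBI versus Naive 2 of the 32 were called higher and 2 lower, where 2.99% and 1.73% of all tested probes were. Vim, the intermediate filament of reactive glia, rose by 2.63 ± 0.52 log2 units (limma adjusted p = 0.0168), with a difference of 1.53 from Sham rats (limma adjusted p = 0.115). Bid, a proapoptotic protein that calpain can cleave, rose by 1.22 ± 0.19 (limma adjusted p = 0.00627). Slc8a1, the sodium-calcium exchanger, fell by 1.24 ± 0.19 (limma adjusted p = 0.00627). Grin2b was the other gene called lower (limma adjusted p = 0.0469). Bid and Slc8a1 differed from Naive by about as much in the uninjured Sham rats (1.205 and -1.19, limma adjusted p = 0.00659 and 0.00772) and differed between TBI and Sham rats by 0.01 and -0.06 (limma adjusted p = 0.98 and 0.893). In Sham versus Naive 4 of the 32 were called higher, Dpysl2, Cdk5, Bid and Ctnnb1 (beta-catenin), and 1 lower, Slc8a1, beside 8.07% of all tested probes called in either direction. Among the drug groups 0 of the 32 were called, and against TBI rats 20, 22 and 19 were called higher with PMI, JM6 and E33 and 0 lower, beside 56.7%, 70.1% and 70.4% of all tested probes called in either direction.

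The genes whose pattern over the 16 arrays was most like that of a member were found after each session was centered on its mean, over 8928 genes. For Capn2 they were Fbln2, an extracellular matrix protein (Pearson r = 0.95), Heatr5a (0.92) and Gstcd (0.92). For Cast they were Slc39a6, a zinc transporter (0.93), Fam65b (0.91) and Rrbp1, a ribosome-binding protein of the endoplasmic reticulum (0.91). Capn2 and Cast correlated with each other at 0.75. These 16 points share sessions, slides and depth, and the values are a description.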

How the data were processed

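Total RNA of 16 rat hippocampi was amplified with one of 2 kits, not stated per rat, and hybridized to single-color Agilent arrays. The authors' scanner files hold, per the file headers, the intensity of each spot after background subtraction and detrending in Agilent Feature Extraction 9.5.3.1, with no normalization between arrays. The authors' deposited value table holds a ratio to the 75th percentile, with a median of 0.14 in each column and a correlation of 0.981 to 0.999 with the scanner values. It was used as an alternative, and how its columns were brought to 1 distribution is not given in the sources used here.

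Spots flagged as outliers were dropped, 42877 spots were averaged to 30367 probes, and log2 was taken of each value over its array's 75th percentile of detected probes. A probe entered the test if all arrays of some group had it above background, and the 22780 such probes were fitted in 1 limma model without intercept (10 residual degrees of freedom) with Benjamini-Hochberg adjustment at 0.05. The brightest tested probe led for each gene. Precision is limited by 2 or 3 rats per group. The number of probes above background gives each array's depth. The model was tested on simulated data.

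The members and gene lists were chosen with earlier results of these data known. The genes named are the members, all other calpain genes measured, the 4 substrate genes with the largest called change in TBI versus Sham and in TBI versus Naive, and the 3 genes most like Capn2 and Cast, while Cdk5 and Ctnnb1 were added after their values were seen. Alternatives were normexp (offset 50), quantile, all-probe percentile, E1A and GC scaling, the value table, other filters, limma on the compared groups, the methods' t-test (fold over 1.2), slide and replicate blocks, array weights, gene means and each array left out. R 4.3.3, limma 3.58.1 and Python 3.11.15 were used.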

Additional observations from a re-analysis of the deposited data

How the results depend on the processing

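Values are log2 differences of group means or counts of called genes among the 10. For single members and the related genes named, 1009 values were recomputed under other processing, of which 682 kept their direction and their side of the threshold, 171 lost the call, 44 gained it and 112 turned direction. Leaving out an array (384 values) gave 314, 53, 12 and 5. The limit on every comparison is 2 or 3 arrays per group, and the dim Capn3, Capn5, Capn8 and Capn12 stood near background. The cause of these changes was not tested.

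The percent of all tested probes called in the same setting is given in parentheses. In TBI versus Sham the count of 0 called genes became 1 under quantile normalization (7.95%), 2 with the percentile over all probes (12.3%) and 2 in the authors' value table (8.54%). It became 2 with the GC trend removed (12.7%), 1 among probes above background on every array (15.4%) and 1 by the methods' unadjusted t-test (13.5%). With the slide as a random block it was 3 (16.8%), and with array weights 2 (17.4%). In TBI versus Naive the count of 1 became 0 under normexp (0.176%), among probes above background on every array (8.81%) and with limma on the compared groups alone (0.0658%). It was also 0 by the methods' adjusted t-test (0.00439%) and with the slide as a fixed block (0.189%). In TBI+E33 versus TBI+PMI the count of 0 became 3 by the methods' unadjusted t-test (15%) and 1 with array weights (6.69%). In TBI+PMI versus TBI+JM6 it became 1 with array weights (3.06%). Against TBI rats the counts of 5, 6 and 6 with PMI, JM6 and E33 became 0 in each under normexp (6.24%, 21.5% and 14.1%). They became 2 in each, all lower, under quantile normalization (19.2%, 27.2% and 20.4%) and in the authors' value table (19%, 27% and 20.6%). Among probes above background on every array they were 1, 2 and 2 of 6 genes (50.4%, 65.8% and 65.1%). Arrays were also left out in turn, and counts are given where 2 arrays stayed in the group. They ran from 0 to 3 in TBI versus Sham (1.89% to 17.8%), 0 to 2 in TBI versus Naive (1.24% to 8.99%) and 0 to 0 in Sham versus Naive (3.83% to 6.57%). Against TBI rats they ran from 3 to 6 with PMI (44.8% to 58.8%), 4 to 8 with JM6 (58.7% to 70.5%) and 5 to 6 with E33 (61.7% to 70.9%). Among the drug groups they stayed at 0 (0% to 0.237%).

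Under quantile normalization the calls over all probes in drug-treated versus TBI rats split into 2267 higher and 2096 lower for PMI, 3158 and 3041 for JM6 and 2373 and 2277 for E33, against 12916 and 11, 15936 and 40, and 16012 and 21 in the scaling used here. With the GC trend removed the split was 3396 and 7223, 4079 and 7852, and 3798 and 7878, and Capn2, Capn6, Capn7, Capn10 and Cast were called lower with each drug. The percent of all probes called ranged over the alternatives from 0.00439 to 17.4 in TBI versus Sham, 0.00439 to 13.9 in TBI versus Naive, 6.24 to 69.6 in TBI+PMI versus TBI, 21.5 to 78.5 in TBI+JM6 versus TBI and 14.1 to 82.1 in TBI+E33 versus TBI. Under quantile normalization, Capn10 was at -0.29, -0.24 and -0.24, Capn2 was at -0.081, -0.18 and -0.41, Capn5 on its second probe was at -0.53, -0.25 and -0.65 and Capn7 was at -0.47, -0.45 and -0.54 with PMI, JM6 and E33. There Cast was at -0.22, -0.29 and -0.17 in that order. Also reversed were results in which Capn1 was at -0.12 with JM6 and -0.15 with PMI, Capn3 was at -0.64 with E33 and -0.28 with JM6 and Solh was at -0.20 with JM6. In the authors' value table, Capn10 was at -0.28, -0.24 and -0.24, Capn2 was at -0.059, -0.18 and -0.40, Capn5 on its second probe was at -0.47, -0.17 and -0.51 and Capn7 was at -0.44, -0.44 and -0.52 with PMI, JM6 and E33. There Cast was at -0.20, -0.28 and -0.16 in that order. Also reversed were results in which Capn1 was at -0.13 with JM6 and -0.14 with PMI, Capn3 was at -0.15 with E33 and -0.25 with JM6 and Solh was at -0.20 with JM6. With the percentile over all probes, Capn10 was at -0.18, -0.11 and -0.096, Capn2 was at -0.26, -0.36 and -0.61, Capn7 was at -0.52, -0.51 and -0.61 and Cast was at -0.25, -0.31 and -0.22 with PMI, JM6 and E33. Also reversed were results in which Capn2 on its second probe was at -0.095 with PMI and Solh was at -0.24 with JM6. With scaling to the E1A control spots, Capn1 was at -0.37, -0.33 and -0.23, Capn10 was at -0.55, -0.50 and -0.53, Capn2 on its second probe was at -0.47, -0.16 and -0.35 and Capn2 was at -0.64, -0.75 and -1.05 with PMI, JM6 and E33. There Capn7 was at -0.90, -0.89 and -1.05, Capns1 was at -0.051, -0.054 and -0.025 and Cast was at -0.63, -0.70 and -0.65 in that order. Also reversed were results in which Solh was at -0.63 with JM6. With the GC trend removed, Capn1 was at -0.41, -0.45 and -0.38, Capn10 was at -0.55, -0.59 and -0.66, Capn2 on its second probe was at -0.52, -0.25 and -0.47 and Capn2 was at -0.71, -0.83 and -1.17 with PMI, JM6 and E33. There Capn7 was at -0.85, -0.83 and -1.04, Capns1 was at -0.11, -0.14 and -0.15 and Cast was at -0.57, -0.63 and -0.64 in that order. Also reversed were results in which Capn3 was at -0.0012 with E33 and Solh was at -0.71 with JM6.

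With normexp, Capn12 was at 0.19 in TBI versus Naive and 0.29 in TBI versus Sham, Grin2b at 0.30 and 0.043 in the same comparisons, and Capn3 at 0.41 in TBI versus Sham and -0.52 in TBI+PMI versus TBI+JM6. Against TBI rats it gave Capn12 at -0.13, Capn8 at -0.16 and the second Capn5 probe at -0.48 with PMI, Capn3 at -0.14 with E33 and Capn6 at 0.32 with JM6. The fixed slide block gave Capn10 at 0.046 in TBI versus Sham, and array weights gave Capn6 at 0.033 with PMI. The ratio of Capn2 to Cast turned under normexp in Sham versus Naive (-0.16), TBI versus Sham (0.062) and TBI+PMI versus TBI (0.040), and with gene means over probes in TBI versus Naive (0.012) and TBI+PMI versus TBI+JM6 (-0.14). With each array left out its difference ran from -0.24 to 0.27 in Sham versus Naive, -0.31 to 0.20 in TBI versus Naive, -0.24 to 0.12 in TBI versus Sham, -0.58 to -0.23 in TBI+E33 versus TBI, -0.44 to -0.24 in TBI+E33 versus TBI+JM6, -0.48 to -0.28 in TBI+E33 versus TBI+PMI, -0.24 to 0.11 in TBI+JM6 versus TBI, -0.20 to 0.15 in TBI+PMI versus TBI and -0.0027 to 0.075 in TBI+PMI versus TBI+JM6.

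Without Sham 1 the second Capn2 probe was at -0.0046 in TBI versus Sham, and without Sham 2 at 0.52. Without TBI 1 Capn2 was at -0.10 with E33 against TBI (0.48 without TBI 2), and Capn6 at 0.028 with JM6 and 0.12 with PMI. Without TBI+PMI 3 Capn6 was at 0.12 with PMI. Of 36 correlations of deviations between same-numbered arrays 3 were above 0.1, and the range was -0.185 to 0.181. The highest were Sham 1 with TBI 1 (0.181) and Sham 2 with TBI 2 (0.154). No correlations of differently numbered arrays stand beside them, so pairing by replicate number was not excluded. With a replicate block 0 genes were called in TBI versus Sham and 1 in TBI versus Naive, where 6.76% and 5.82% of all probes were. Against TBI 5, 6 and 5 were called with PMI, JM6 and E33, where 56.8%, 70.7% and 68% of all probes were.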
